A study of Homo sapiens with 16 samples.

Results

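The estradiol response of T-47D breast cancer cells was compared with that of ECC-1 endometrial cancer cells, gene by gene, in 8 of the 16 RNA sequencing libraries of the study. T-47D is an established line from a luminal, estrogen receptor-positive breast carcinoma, and ECC-1 is an established line from an endometrial adenocarcinoma whose stocks have been reported to share the genotype of Ishikawa, another endometrial line. The groups, each of 2 libraries, were T-47D with 0.02% DMSO, T-47D with 10 nM 17β-estradiol, ECC-1 with 0.02% DMSO and ECC-1 with 10 nM 17β-estradiol, each exposed for 8 h. All dishes had first been kept in phenol red-free medium with charcoal-treated serum, which is low in steroid hormones. The other 8 libraries, from cells given 100 nM bisphenol A or 100 nM genistein, did not enter the differences themselves. They entered the estimate of the spread, the scaling, the filter on low values and the choice of transcript for each gene. A single line stood for each tissue, so a difference between tissues and one between lines cannot be told apart. No label states that replicates were separate cultures, so p-values measure only the spread between these libraries, which may be technical.

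Estradiol acts through estrogen receptor alpha, the product of ESR1, which binds DNA at estrogen response elements or through other factors and recruits coactivators or corepressors. In luminal breast cells its sites are often opened by FOXA1 and GATA3, and its classical targets include the secreted trefoil peptide gene TFF1, the growth coregulator GREB1 and the progesterone receptor PGR. In endometrial epithelium estradiol drives proliferation and induces the progesterone receptor. ESR1 itself was at 28.1 and 34.7 scaled RPKM (reads per kilobase of transcript per M reads, put on a common scale across libraries) in the T-47D DMSO libraries and at 23.7 and 19.5 in the ECC-1 DMSO libraries. With estradiol it was at 31.4 and 43.8 in T-47D and at 19.3 and 17.1 in ECC-1, and the change did not differ between the lines past the threshold (difference 0.48 on the log2 scale, 95% interval −0.05 to 1.01, adjusted p = 0.351).

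The measure throughout is the difference of differences on log2(scaled RPKM + 0.5): the change from DMSO to estradiol in T-47D minus that in ECC-1. Positive values lie toward T-47D and negative values toward ECC-1. Because 0.5 is added, a low gene's change comes out smaller than its ratio of means. Of 13834 tested genes, 239 (1.73%) differed at an adjusted p under 0.05 (limma), 123 (0.889%) toward T-47D and 116 (0.839%) toward ECC-1, and 2276 had an unadjusted p under 0.05. In all 239 the 4 estradiol-minus-DMSO differences between libraries of one line lay outside the 4 of the other, which also held for 23.7% of all tested genes. The difference exceeded 1 on the log2 scale in 189 of them and 2 in 24. The spread between the 2 libraries was wider with estradiol (SD over genes of their difference 0.411 in T-47D and 0.343 in ECC-1) than in the other 6 groups (0.169 to 0.242), and a fit with array weights, which lets the spread differ between groups, called 60 genes, 24 toward T-47D and 36 toward ECC-1. The count of 239 became 2212 without T-47D estradiol library 2, 1713 without ECC-1 estradiol library 2, 112 without T-47D DMSO library 2, 115 without ECC-1 DMSO library 1, 146 without ECC-1 DMSO library 2 and 150 without ECC-1 estradiol library 1. All 239 genes kept their sign in each of these fits, but this was fixed in advance and lends no support. Where the differences do not overlap, neither leaving out a library nor weights that are equal within a group can turn a sign. Of the 239 genes, 57, 22 toward T-47D and 35 toward ECC-1, were called in every one of the 20 alternatives run on single genes. The alternatives without a second estradiol library, in either line or in both, called far more genes and ended almost no call. Passing them therefore lends little support to a gene.

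The 239 genes were sorted by the line with the larger absolute change, whether or not that change passed its own test. A larger T-47D rise was seen in 102 genes (0.737% of those tested), where the median change was 1.37 for T-47D and 0.0 for ECC-1. A larger ECC-1 rise was seen in 79 genes (0.571%), where the medians were 1.23 (ECC-1) and −0.04 (T-47D). A larger T-47D fall was seen in 37 genes (0.267%; medians −0.82 in T-47D and 0.26 in ECC-1), and a larger ECC-1 fall in 21 (0.152%; medians −0.74 in ECC-1 and 0.2 in T-47D). By the tests within each line, 93 genes rose in T-47D and were not called in ECC-1, 69 rose in ECC-1 and were not called in T-47D, 34 fell in T-47D alone by call, 16 fell in ECC-1 alone by call, 4 rose in both, 3 fell in T-47D and rose in ECC-1, and 20 were called in neither line. The 57 genes called under every alternative held 30 of the larger ECC-1 rises, 22 of the larger T-47D rises, 5 of the larger T-47D falls and none of the larger ECC-1 falls.

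**Figure D1:**
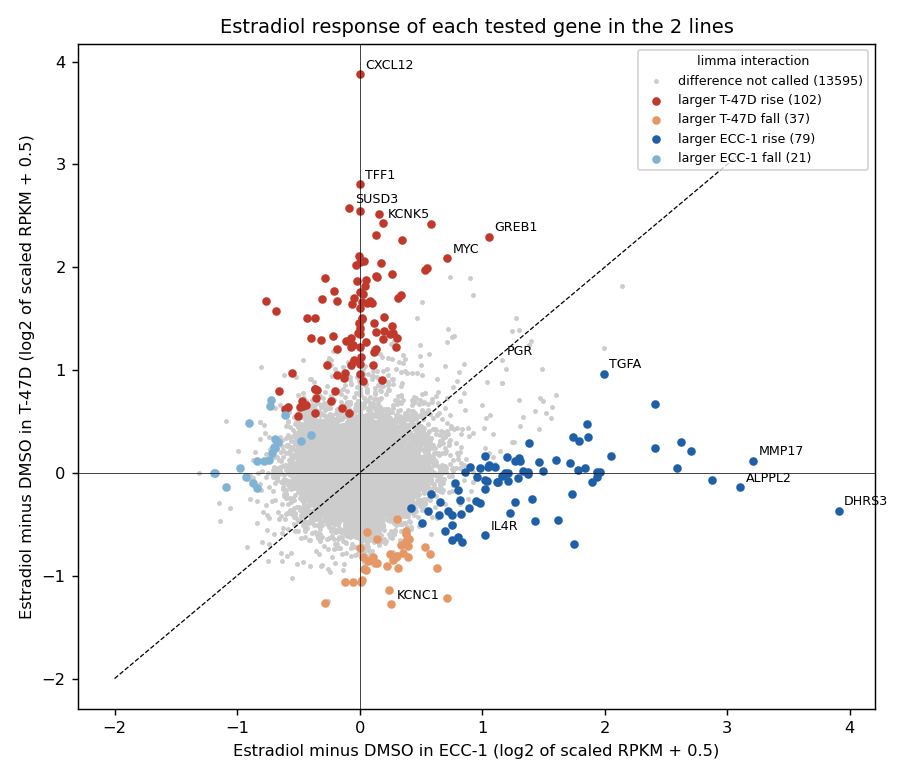
Change from DMSO to estradiol in ECC-1 (horizontal axis) and T-47D (vertical axis), log2 of scaled RPKM + 0.5, for each of 13834 tested genes; coloured points are the 239 genes whose change differed between the lines, in 4 classes by the larger change, grey points all others, and the dashed line marks equal changes. The 102 larger T-47D rises lie along the vertical axis, with CXCL12 at 3.88, and the 79 larger ECC-1 rises along the horizontal axis, with DHRS3 at 3.91.

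Promoter windows are shown for the pair of genes with the largest differences in each direction among the named genes that have a single window in the RefSeq table. They are RefSeq sequences on GRCh38.p14 from 250 bases before to 50 bases after the annotated start, 5′ to 3′ on the gene's strand, with capitals marking AGGTCA, one arm of the estrogen response element, and GGGCGG or its reverse complement, the core that SP1 binds.
CXCL12 (chr10:44385048-44385347, minus strand): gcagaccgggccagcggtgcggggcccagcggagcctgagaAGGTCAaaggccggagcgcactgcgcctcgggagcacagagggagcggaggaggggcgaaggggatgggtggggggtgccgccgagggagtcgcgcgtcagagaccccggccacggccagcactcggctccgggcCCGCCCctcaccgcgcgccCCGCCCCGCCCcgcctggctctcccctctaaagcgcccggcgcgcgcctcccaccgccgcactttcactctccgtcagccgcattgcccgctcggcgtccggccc
SUSD3 (chr9:93058451-93058750, plus strand): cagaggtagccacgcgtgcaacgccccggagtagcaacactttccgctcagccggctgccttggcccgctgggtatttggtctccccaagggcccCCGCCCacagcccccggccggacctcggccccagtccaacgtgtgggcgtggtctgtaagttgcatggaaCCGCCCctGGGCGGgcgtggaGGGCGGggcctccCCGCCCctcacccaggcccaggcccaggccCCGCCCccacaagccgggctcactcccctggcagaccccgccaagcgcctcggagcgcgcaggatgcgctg
ALPP (chr2:232378501-232378800, plus strand): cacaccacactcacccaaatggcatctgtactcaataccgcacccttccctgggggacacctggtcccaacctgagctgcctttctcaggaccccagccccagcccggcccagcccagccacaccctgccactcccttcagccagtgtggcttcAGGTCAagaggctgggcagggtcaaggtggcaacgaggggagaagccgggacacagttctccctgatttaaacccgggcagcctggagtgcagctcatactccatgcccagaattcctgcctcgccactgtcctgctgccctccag
G0S2 (chr1:209675162-209675461, plus strand): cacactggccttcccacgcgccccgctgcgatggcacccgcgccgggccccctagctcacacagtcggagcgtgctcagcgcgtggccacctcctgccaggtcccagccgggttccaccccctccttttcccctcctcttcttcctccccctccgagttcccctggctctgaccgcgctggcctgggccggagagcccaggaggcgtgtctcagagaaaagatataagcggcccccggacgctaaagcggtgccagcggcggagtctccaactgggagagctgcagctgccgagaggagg

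Only genes with a single window in the RefSeq table were searched, which left 40 of the 102 larger T-47D rises and 33 of the 79 larger ECC-1 rises. Both strands were searched, and a single site inside a full element counts under both. The full element GGTCANNNTGACC was in none of these windows and in 0.02% of the 6632 windows of tested genes. AGGTCA was in 6 of 40 and 3 of 33 windows, against 9.73% of tested genes and 14.35% of all 22114 windows. GGGCGG was in 28 of 40 (70.0%) and 26 of 33 (78.79%), against 72.23% of tested genes. TGTTTAC, which FOXA1 binds, was in 2 and 0 windows (2.14% of tested genes), AGATAA, which GATA factors bind, in 3 and 0 (4.28%), TGANTCA, the AP-1 element, in 1 and 1 (4.28%), and CCGGAAG, the ETS element, in 1 and 0 (20.37%). These matches describe letters in short windows; binding data were not analysed here.

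Among genes with the difference toward T-47D, CXCL12, which encodes a chemokine, came first. It was at 3.85 and 2.26 scaled RPKM in T-47D DMSO and at 51.6 and 49.3 in T-47D with estradiol, and it was listed at 0 in all 4 ECC-1 libraries. The difference was 3.88 (95% interval 3.21 to 4.54, adjusted p = 1.97e-05). TFF1 was at 0.392 and 0 in T-47D DMSO, at 4.4 and 3.97 with estradiol, and listed at 0 in all 4 ECC-1 libraries (difference 2.81, interval 1.89 to 3.73, adjusted p = 0.00224). OLFM1, which encodes the secreted protein olfactomedin 1, was at 8.4 and 6.34 and rose to 36.2 and 56 in T-47D, and was likewise listed at 0 throughout ECC-1 (difference 2.55, adjusted p = 0.000243). For these genes and for PGLYRP2, a peptidoglycan-recognition protein gene with a difference of 2.05, no fold can be set against ECC-1.

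SUSD3, a membrane protein gene known as estrogen-dependent in breast cancer, was at 3.87 and 3.11 in T-47D DMSO and at 25.9 and 20.6 with estradiol. In ECC-1 it was at 0.274 and 0.245 in DMSO and at 0.135 and 0.308 with estradiol, so the ECC-1 libraries overlapped and all lay below T-47D (difference 2.66, SE 0.378, adjusted p = 0.00123). PTGES, the inducible prostaglandin E synthase, rose from 7.92 and 6.28 to 26.8 and 35.8 in T-47D and was between 0.106 and 0.182 in all ECC-1 libraries (difference 2.03, SE 0.237, adjusted p = 0.000243). AGR3, a secreted disulfide isomerase relative, rose from 15.5 and 11.9 to 42.7 and 40 in T-47D. In ECC-1 AGR3 was at 0.68 and 0.559 in DMSO and lower at 0.071 and 0.347 with estradiol, a change of −0.69 that did not pass its own test (adjusted p = 0.0797). KCNH1, a voltage-gated potassium channel gene, rose from 1.39 and 1.44 to 7.56 and 7.92 in T-47D and was at most 0.00588 in ECC-1. RUNX1, a transcription factor gene named after its values were seen, rose from 3.92 and 4.58 to 19 and 17.7 in T-47D (difference 1.44, adjusted p = 0.00184), and was between 0.693 and 1.43 in ECC-1. Without array weights all of these were called, and with them TFF1, SUSD3 and RUNX1 were not.

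In other genes the ECC-1 cells already held as much transcript or more. KCNK5, a background (leak) potassium channel gene, was at 0.136 and 0.216 in T-47D DMSO and at 3.15 and 3.11 with estradiol, and at 5.21 and 6.15 in ECC-1 DMSO and 6.17 and 6.88 with estradiol. It rose in T-47D only by call, yet every ECC-1 library was above every T-47D library (difference 2.24, SE 0.251, adjusted p = 0.000209). SLC47A1, a cation and toxin exporter gene named after its values were seen, had the same arrangement: 0.328 and 0.482 to 3.34 and 4.38 in T-47D, against 6.09 and 5.95 in ECC-1 DMSO and 8.17 and 7.43 with estradiol (difference 1.92, adjusted p = 0.00101). SGK3, a serum- and glucocorticoid-regulated kinase gene, had overlapping DMSO levels, 4.52 and 3.38 in T-47D and 4.28 and 4.66 in ECC-1. With estradiol it rose to 15.2 and 19.9 in T-47D and stayed at 4.44 and 4.27 in ECC-1 (difference 2.05, SE 0.219, adjusted p = 0.000154). FGD3 rose from 2.94 and 2.41 to 12.8 and 9.94 in T-47D and was at 2.23 and 2.51, then 2.04 and 1.68, in ECC-1 (difference 2.18, adjusted p = 0.00113; 0.0529 with array weights). KRT13, a keratin gene of stratified epithelia, rose from 0.58 and 0.681 to 5.49 and 4.78 in T-47D and was between 0.936 and 1.26 in ECC-1.

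MYC, the growth-regulating transcription factor gene, rose in both lines from very different levels. It was at 3.07 and 2.95 in T-47D DMSO and rose to 14.7 and 14.1, a change of 2.09 (adjusted p = 2.92e-06). In ECC-1 it was at 19 and 22.4 in DMSO and rose to 35.4 and 33.1, a change of 0.71 (adjusted p = 0.0288). The change was larger in T-47D by 1.37 (SE 0.222, adjusted p = 0.0032; 0.12 with array weights), while its level with estradiol stayed below the ECC-1 DMSO level. GREB1 also rose in both lines, from 11.2 and 12.8 to 64.5 and 57.2 in T-47D and from 1.99 and 1.43 to 4.51 and 3.63 in ECC-1. Its difference of 1.25 stood at the threshold (adjusted p = 0.0494) and was lost in 12 of 20 alternatives. Leaving out a single library ended the GREB1 call 6 times, with an adjusted p of 0.126 without T-47D estradiol library 1, 0.153 and 0.122 without T-47D DMSO library 1 or 2, 0.0891 without ECC-1 estradiol library 1, and 0.249 and 0.0637 without ECC-1 DMSO library 1 or 2.

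Toward ECC-1, DHRS3, a retinaldehyde reductase gene, came first. It was at 0.75 and 1.42 in ECC-1 DMSO and rose to 17.5 and 29.5, and it was at 5.72 and 4.62 in T-47D DMSO and 3.4 and 4.39 with estradiol. The ECC-1 level was thus below T-47D in DMSO and above it with estradiol (difference −4.28, interval −5.3 to −3.25, adjusted p = 0.000209). MMP17, a membrane-type metalloproteinase gene, behaved alike: 0.874 and 0.77 rose to 12.6 and 10.9 in ECC-1, and T-47D was at 7.4 and 7.39 in DMSO and 9.65 and 6.75 with estradiol (difference −3.09, SE 0.237, adjusted p = 1.97e-05). CABLES1, a gene for a protein that links cyclin-dependent kinases to their regulators, rose in ECC-1 from 1.76 and 2.35 to 8.35 and 7.55, beside 7.73 to 9.43 in the 4 T-47D libraries, so 1 of the 2 ECC-1 estradiol libraries lay in the T-47D range. DEPDC6, which encodes the mTOR-binding protein DEPTOR, rose in both lines, from 3.8 and 3.13 to 20.2 and 20.8 in ECC-1 and from 8.88 and 8.12 to 12.4 and 15.4 in T-47D (difference −1.74, adjusted p = 0.000209). SLC6A6, the taurine transporter gene, rose in ECC-1 from 2.54 and 2.81 to 14.7 and 10.9, and T-47D was at 14.5 and 11.4 in DMSO and 15.8 and 13.2 with estradiol. DEPDC6 and SLC6A6 were named after their values were seen.

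ALPPL2 and ALPP, near-identical placental-type alkaline phosphatase genes whose reads may be divided between them, rose in ECC-1 from 0.378 and 0.604 to 8.49 and 7.5 and from 0.262 and 0.33 to 5.99 and 4.74. They were at most 0.253 in T-47D, and their differences were −3.25 (adjusted p = 8.78e-05) and −2.94 (adjusted p = 0.000127). MUC5B, a gel-forming mucin gene, rose from 0.832 and 0.738 to 7.6 and 6.9 in ECC-1 and was at most 0.273 in T-47D (difference −2.54, adjusted p = 3.59e-05). G0S2, which encodes an inhibitor of the triglyceride lipase ATGL, rose from 2.75 and 2.95 to 19.4 and 23.4 in ECC-1 and was listed at 0 in 3 of 4 T-47D libraries. Its difference of −2.49 (adjusted p = 0.0032) did not pass with a pseudocount of 0.1 or with array weights. HES2, a basic helix-loop-helix repressor gene, rose from 9.2 and 8.85 to 54.1 and 46.6 in ECC-1 and was between 0.625 and 1.44 in T-47D (difference −2.17, adjusted p = 0.000388). NRTN, which encodes the GDNF-family ligand neurturin, rose from 10.3 and 6.99 to 30.9 and 37.3 in ECC-1 and was at most 0.384 in T-47D. PLAT, tissue plasminogen activator, rose from 1.53 and 1.24 to 6.24 and 7.18 in ECC-1 and was at most 0.238 in T-47D. ANO1, a calcium-activated chloride channel gene, was at similar levels in DMSO, 2.83 and 3.06 in ECC-1 and 2.24 and 2.1 in T-47D. With estradiol ANO1 rose to 21.4 and 20.1 in ECC-1 and was at 2.44 and 3.18 in T-47D (difference −2.33, adjusted p = 0.000187). SLCO2A1, the prostaglandin transporter gene, rose from 1.73 and 2.02 to 8.61 and 6.43 in ECC-1 and was at 1.36 and 1.62, then 0.747 and 0.703, in T-47D (difference −2.44, adjusted p = 0.000187). TIAF1 overlaps MYO18A and ESPNP is a pseudogene of ESPN, so their differences of −2.08 and −1.95 cannot be assigned to them alone.

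**Figure D2:**
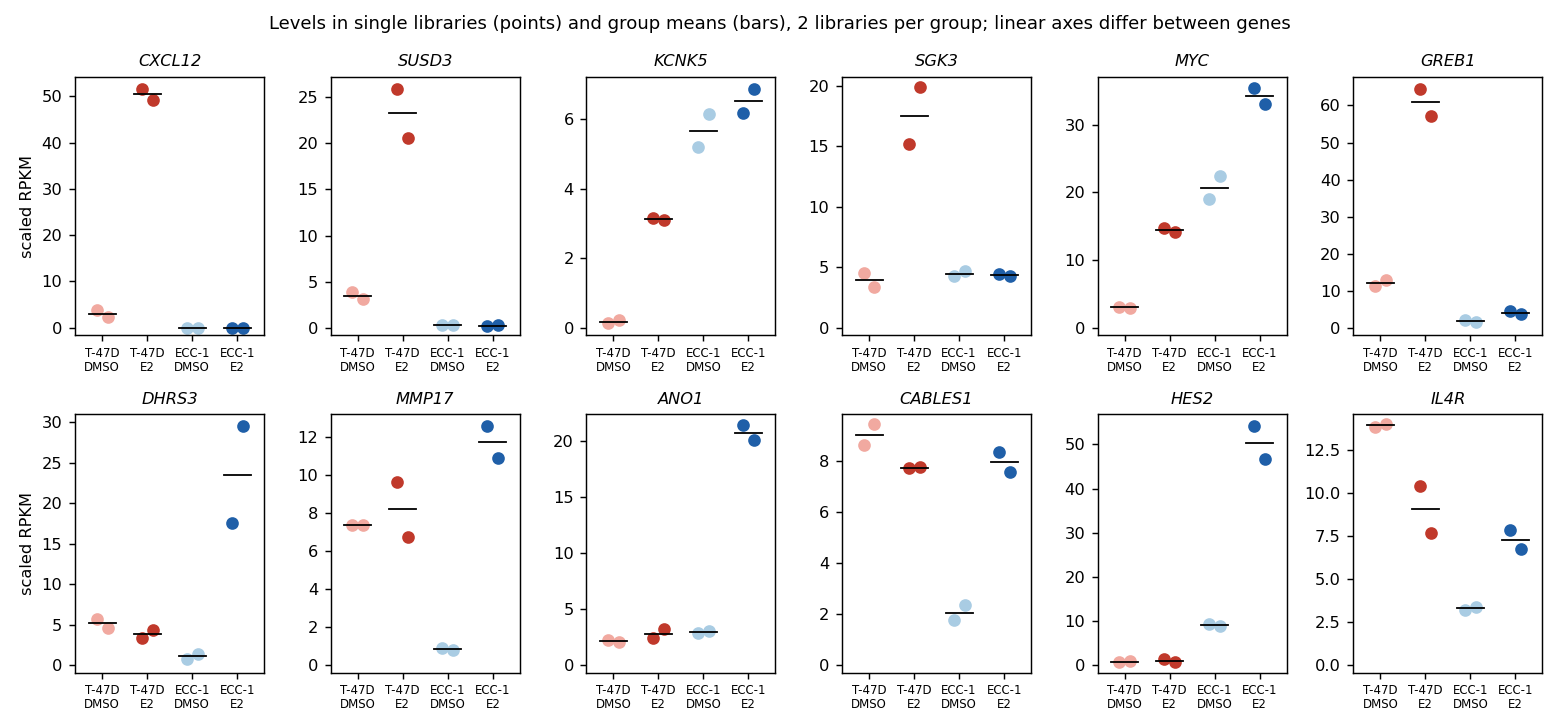
Scaled RPKM of 12 genes in each of the 8 libraries (points, 2 per group; horizontal bars are group means; linear axes that differ between genes). In the upper row, apart from MYC and GREB1, which also rose in ECC-1, T-47D moved and ECC-1 was nearly level, with KCNK5 and MYC higher in ECC-1 throughout; in the lower row ECC-1 rose, from below T-47D for DHRS3, MMP17, CABLES1 and IL4R.

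Few genes rose in one line and fell in the other. IL4R, the interleukin-4 receptor alpha chain gene, was at 13.8 and 14 in T-47D DMSO and fell to 10.4 and 7.68, and it rose in ECC-1 from 3.22 and 3.39 to 7.83 and 6.71. The T-47D estradiol library 2 lay within the ECC-1 estradiol range, so the level gap between the lines nearly closed (difference −1.63, SE 0.197, adjusted p = 0.000298). VASN, which encodes a TGF-beta-binding membrane protein, fell in T-47D from 9.16 and 8.52 to 6.58 and 4.65 and rose in ECC-1 from 33.3 and 37.7 to 65.4 and 59.2 (difference −1.43, adjusted p = 0.00289). ROBO2, an axon guidance receptor gene, fell in T-47D from 8.78 and 11.5 to 5.39 and 7.12 and rose in ECC-1 from 0.0754 and 0.168 to 0.519 and 0.576 (difference −1.41, adjusted p = 0.00398). KCNC1, a voltage-gated potassium channel gene, fell in T-47D from 4.68 and 5.26 to 2.28 and 1.33 and was at most 0.159 in ECC-1 (difference −1.53, adjusted p = 0.00241). S1PR3, a sphingosine-1-phosphate receptor gene, fell in T-47D from 7.98 and 6.82 to 3.15 and 2.99 and was between 1.26 and 2.13 in ECC-1 (difference −1.38, adjusted p = 0.00416; not called with array weights). TGFA, a ligand of the EGF receptor, rose in both lines, from 35.1 and 34.4 to 134 and 147 in ECC-1 and from 3.03 and 2.99 to 5.74 and 7.01 in T-47D. Its change was larger in ECC-1 by 1.03 on the log2 scale (difference −1.03, adjusted p = 0.00416). TGFA was not called with array weights (0.0561) or with only the 8 libraries (0.0676), nor ROBO2 with array weights (0.0834).

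Of the 45 tested genes listed as estrogen-induced in breast cancer cells, a list chosen with earlier results of these data known, 20 differed toward T-47D and none toward ECC-1, beside 0.889% and 0.839% of all tested genes. Their median difference was 0.99, against −0.01 over all tested genes. Within the lines 34 of the 45 rose in T-47D (2.1% of all tested genes) and 14 in ECC-1 (1.42%), and 1 fell in ECC-1 (0.477%). A difference toward T-47D need not be a stronger rise there: that of AGR2, among the 20, came with a larger ECC-1 fall. STC2, the stanniocalcin 2 gene, rose in T-47D from 28.5 and 20.1 to 133 and 126 and was at 7.52 and 7.72, then 12 and 11.3, in ECC-1 (difference 1.84, adjusted p = 0.00204). PDZK1, a scaffold protein gene with a related pseudogene, rose in T-47D from 2.15 and 1.59 to 6.57 and 7.1 and was between 0.986 and 1.39 in ECC-1 (difference 1.7, adjusted p = 0.000736; 0.0503 with array weights). XBP1, a transcription factor gene of the unfolded protein response, rose in T-47D from 364 and 305 to 587 and 805 and was between 109 and 126 in ECC-1 (difference 1.12, adjusted p = 0.0112). The XBP1 call was lost with array weights, with only the 8 libraries and with quantile normalization. It was also lost without T-47D DMSO library 2 and without ECC-1 DMSO library 1. At an unadjusted p under 0.05 the list held 29 genes toward T-47D and 3 toward ECC-1.

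Other genes of that list were not called as different. PGR rose in T-47D from 58.4 and 68.5 to 113 and 163 and in ECC-1 from 0.0941 and 0.0478 to 0.781 and 0.768. The PGR difference was −0.07 (interval −0.62 to 0.49, adjusted p = 0.917), and the PGR level stayed far lower in ECC-1. There the added 0.5 shrinks the log2 change well below the ratio of means, so the interval does not bound the difference in fold of PGR. IGFBP4, an insulin-like growth factor binding protein gene, rose in T-47D from 88 and 90.3 to 231 and 216 and in ECC-1 from 0.462 and 0.497 to 1.11 and 1.2 (difference 0.57, interval 0.16 to 0.97, adjusted p = 0.17). The added 0.5 also shrinks the ECC-1 change of IGFBP4, so this difference is not one in fold. CCND1, the cyclin D1 gene, did not pass in either line, with changes of 0.4 in T-47D and 0.37 in ECC-1 (difference 0.03, interval −0.44 to 0.51). CA12, a carbonic anhydrase gene, and THBS1, the thrombospondin 1 gene, rose in both lines, by 1.21 and 1.81 in T-47D and 1.99 and 2.14 in ECC-1, and their differences of −0.78 and −0.33 did not pass.

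**Figure D3:**
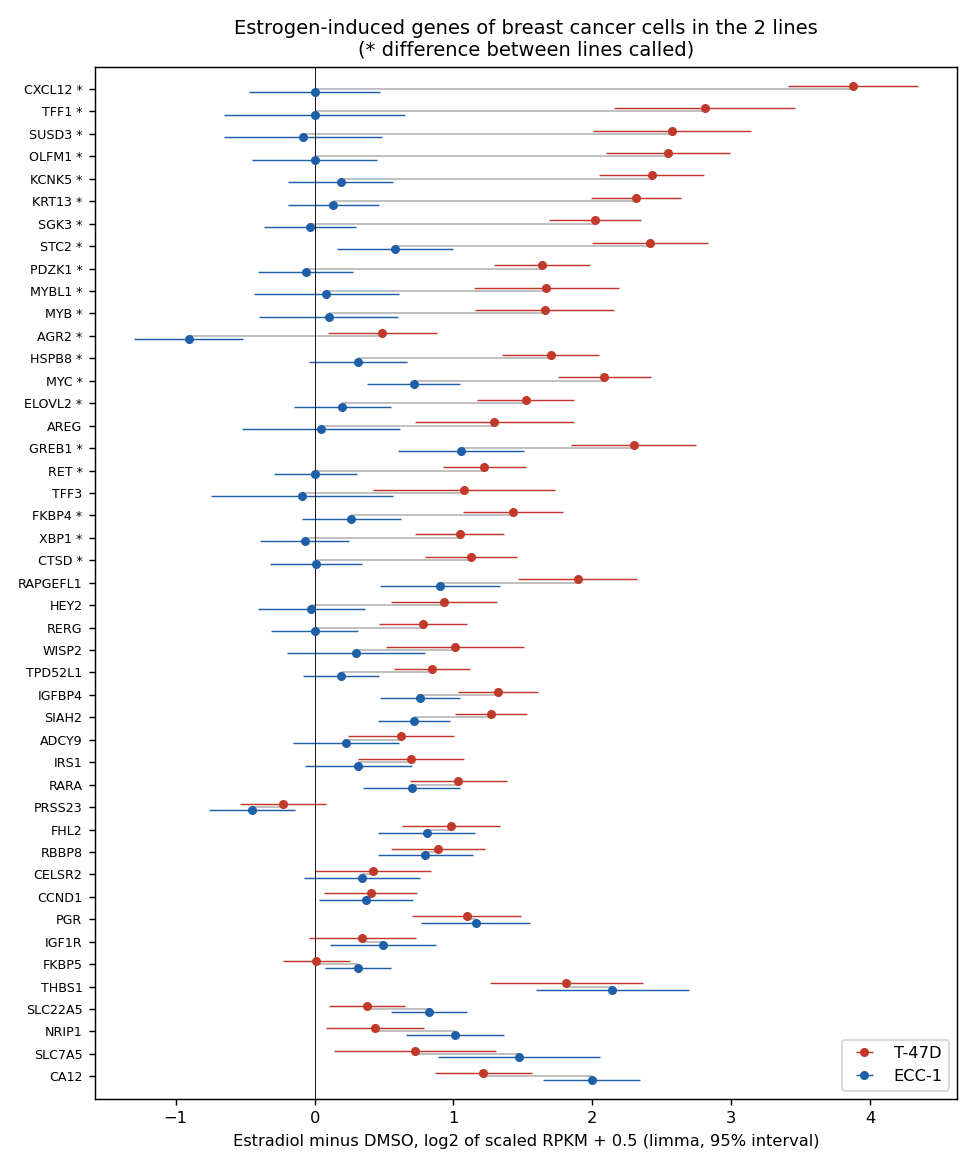
Change from DMSO to estradiol, log2 of scaled RPKM + 0.5, in T-47D (red) and ECC-1 (blue) for the 45 tested genes listed as estrogen-induced in breast cancer cells; points are limma estimates, bars 95% intervals, and asterisks mark the 20 genes whose change differed between the lines. The genes run from CXCL12 at a difference of 3.88 at the top to CA12 at −0.78 at the bottom.

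The other lists were also chosen with earlier results of these data known. Their counts stand beside 0.889% of all tested genes toward T-47D and 0.839% toward ECC-1. Of 24 tested genes listed as estrogen-repressed in breast cancer cells, 6 differed toward ECC-1 (S1PR3, PCDH7, VTCN1, EPAS1, EFNB2 and ENC1) and 1 toward T-47D (YPEL3). Within the lines 10 fell in T-47D (1.11% of all tested genes) and 4 in ECC-1 (0.477%). EPAS1, a hypoxia-inducible factor gene, fell in T-47D from 81.9 and 94.3 to 47.9 and 43.1 and was between 2.01 and 2.9 in ECC-1 (difference −1.0, adjusted p = 0.0231). YPEL3, a growth-suppressor gene, fell in ECC-1 from 5.37 and 5.66 to 2.53 and 2.59 and was between 14.3 and 15.9 in T-47D (difference 1.02, adjusted p = 0.0119). Without T-47D DMSO library 2, ECC-1 DMSO library 1 or ECC-1 DMSO library 2 the adjusted p of YPEL3 was 0.0801, 0.0506 and 0.0645, and that of EPAS1 was 0.143, 0.07 and 0.105. EPAS1 was also not called without ECC-1 estradiol library 1 (adjusted p = 0.0873). Neither EPAS1 nor YPEL3 was called with array weights or with only the 8 libraries. The calls of PCDH7, VTCN1, EFNB2 and ENC1 were kept in 11, 7, 8 and 11 of 20 alternatives. Leaving out single libraries took the adjusted p of PCDH7 to 0.0558 to 0.0711 (T-47D DMSO 1, ECC-1 estradiol 1, either ECC-1 DMSO), and that of ENC1 to 0.0676 to 0.164 (T-47D estradiol 1, T-47D DMSO 2, ECC-1 estradiol 1, ECC-1 DMSO 2). EFNB2 and VTCN1 lost the call without any one of the DMSO libraries or either first estradiol library, with an adjusted p of 0.0507 to 0.222 and 0.0636 to 0.22. Of 16 tested genes linked to estrogen in the endometrium, 6 differed toward ECC-1 (ALPPL2, ALPP, MUC5B, G0S2, SLC6A6 and TGFA) and 3 toward T-47D (OLFM1, PTGES and GREB1), with a median of −0.15. ALPPL2 and ALPP, whose reads may be divided between them, are counted separately here. Of the cytokine feedback genes only the kinase gene PIM1 differed, 1 of 11, rising in ECC-1 from 1.99 and 2 to 9.09 and 8.12 (difference −1.52, adjusted p = 0.000736), and of 30 G1/S genes only the cyclin gene CCND2 (difference −1.38, adjusted p = 0.00978; adjusted p = 0.0626 without ECC-1 DMSO library 1). With array weights CCND2 was not called (adjusted p = 0.107). One gene of 11 in the EGF family list was called, TGFA, and of 12 Notch receptor and HES/HEY genes only HES2. Of 16 potassium channel genes KCNK5 and KCNH1 differed toward T-47D and KCNC1 toward ECC-1. Of 32 ribosome biogenesis genes none differed between the lines (3 at an unadjusted p under 0.05, all toward T-47D), and their median changes were 0.39 in T-47D, with 9 rises, and 0.34 in ECC-1, with 2. In this limma fit no difference was called among 29 G2/M and mitosis genes, 20 immediate early genes, 14 BCL2 family genes or 12 genes of the insulin-like growth factor system, where 0, 6, 3 and 2 genes had an unadjusted p under 0.05. Of 23 estrogen receptor cofactor genes only XBP1 was called. The median of the cofactor list was −0.45, and 11 of its genes had an unadjusted p under 0.05 toward ECC-1, beside 1094 of all 13834 tested genes.

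The line labels were checked against markers of each tissue and of other cell types. Of 19 luminal breast markers, 16 were at 1 scaled RPKM or more in every T-47D library and 9 to 10 in ECC-1, and of 16 Mullerian and endometrial markers, 9 to 10 were so in ECC-1 and 2 in T-47D. Leukocyte, endothelial and fibroblast markers were mostly under 1 in all 8 libraries, with 1 to 4 of each list above it. The interaction was called for 3 of 17 tested luminal markers, KRT18, KRT19 and XBP1, all toward T-47D, beside 0.889% of all tested genes. At an unadjusted p under 0.05 there were 5 luminal markers toward T-47D and 4 toward ECC-1, among them the melanosome transport gene MLPH (difference −1.03, adjusted p = 0.0587), and the median of the list was 0. The interaction was called for none of 11 Mullerian, 4 fibroblast, 2 endothelial and 1 leukocyte markers, of which 1, 1, 0 and 0 had an unadjusted p under 0.05. The luminal sum was 6622 to 6683 in T-47D DMSO and 9111 to 10222 with estradiol, and 4044 to 4177 in ECC-1 DMSO and 2583 to 3170 with estradiol. These sums are led by keratin genes. KRT18 was at 1174 and 1173, then 2065 and 1571, in T-47D and at 1539 and 1571, then 883 and 1177, in ECC-1 (difference 1.23, adjusted p = 0.0339). KRT19 was at 1493 and 1484, then 3170.4 and 2142, in T-47D and at 147 and 155, then 129.8 and 109, in ECC-1 (difference 1.15, adjusted p = 0.029). Both calls were lost with array weights and without either DMSO library of either line, where the adjusted p of KRT18 ran from 0.0963 to 0.131 and that of KRT19 from 0.085 to 0.123. They were also lost without T-47D estradiol library 1 (0.118 for KRT18 and 0.074 for KRT19), and KRT18 without ECC-1 estradiol library 1 (0.113). The part of these marker shifts in the other differences was not tested.

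The differences were then set against the DMSO level. Of the 102 larger T-47D rises, 49 (48.0%) were under 1 scaled RPKM in ECC-1 DMSO, beside 11.1% of all tested genes, and 10 of them were listed at 0 there. Of the 79 larger ECC-1 rises, 25 (31.6%) were under 1 in T-47D DMSO, beside 10.5% of all tested genes. A gene under 1 in one line usually entered the test only through libraries at 1 or more elsewhere, and 19 of the 49 were also under 1 in T-47D DMSO, so the filter sets part of both contrasts and nothing is read from their size. The reverse also occurred, with 25 larger T-47D rises at 10 or more in ECC-1 DMSO, B4GALT1 among them, and 27 larger ECC-1 rises at 10 or more in T-47D DMSO, DEGS2 among them. B4GALT1, a galactosyltransferase gene, rose in T-47D from 45.6 and 42.4 to 108 and 144, and it was at 32.1 and 34.1, then 35.5 and 31.6, in ECC-1 (difference 1.47, adjusted p = 0.00224). DEGS2, a sphingolipid hydroxylase gene, rose in ECC-1 from 2.27 and 2.51 to 8.67 and 10.4 and was at 79.8 and 82.7, then 105 and 96.7, in T-47D (difference −1.48, adjusted p = 0.000243). Both genes were named after their values were seen. The 2 shares depended on the estradiol libraries: they were 10.1% and 18.3% without T-47D estradiol library 2, when 992 and 191 genes fell in the classes, and 30.3% and 9.2% without ECC-1 estradiol library 2, with 198 and 660.

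**Figure D4:**
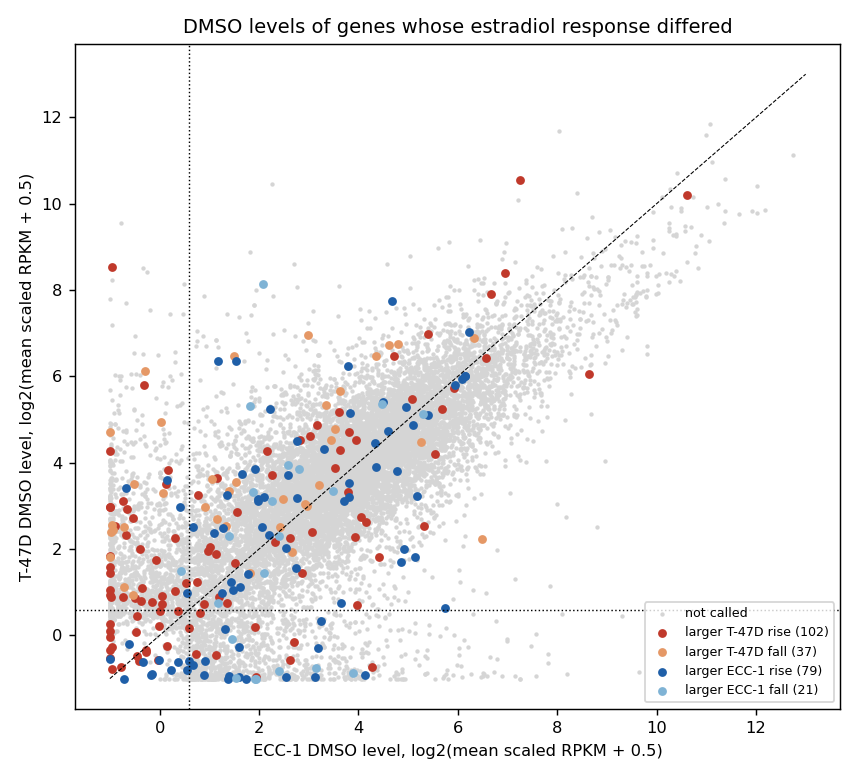
DMSO level of each tested gene in ECC-1 (horizontal axis) and T-47D (vertical axis), log2 of mean scaled RPKM + 0.5; coloured points are the 239 genes whose response differed, by class, dotted lines mark 1 scaled RPKM and the dashed line equal levels. Of the 102 larger T-47D rises 49 lie left of the vertical dotted line, and of the 79 larger ECC-1 rises 25 lie below the horizontal one.

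Of the 336 genes under 1 in both lines in DMSO, 19 (5.655%) differed toward T-47D and 10 (2.976%) toward ECC-1. These shares are no result, since 333 of the 336, and all 29 called genes among them, passed the filter on low values only with a treated library at 1 or more. Of 1200 genes at 1 or more in T-47D alone, 31 (2.583%) differed toward T-47D and 16 (1.333%) toward ECC-1, and of 1119 at 1 or more in ECC-1 alone, 16 (1.43%) and 15 (1.34%). Of the 11179 genes at 1 or more in both lines, which did not depend on a treated library, 57 (0.51%) and 75 (0.671%) differed. CADM1, a cell adhesion gene, belongs to the first of the single-line classes: it rose in T-47D from 19.9 and 17.7 to 57.7 and 70.7 and was at most 0.0125 in ECC-1 (difference 1.72, adjusted p = 0.000257). CA2, a carbonic anhydrase gene, belongs to the other: it rose in ECC-1 from 16.4 and 17.9 to 38.6 and 47.1 and was at most 0.0351 in T-47D (difference −1.34, adjusted p = 0.00114). Both were chosen after their values were seen. In T-47D, 291 genes rose and 154 fell, and in ECC-1 196 rose and 66 fell. Of the 291 T-47D rises, the difference between lines was called for 49 of 99 (49.5%) under 1 in ECC-1 DMSO, 27 of 80 (33.8%) between 1 and 10, and 21 of 112 (18.8%) at 10 or more. Of the 196 ECC-1 rises the matching counts by T-47D level were 25 of 55 (45.5%), 27 of 77 (35.1%) and 24 of 64 (37.5%). These bins were set after the data were seen, the DMSO libraries enter both the level and the change, and the pseudocount compresses the change of a gene that is low in one line.

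The within-line counts moved with single libraries. The T-47D total of 445 became 3132 without T-47D estradiol library 2, 279 without its library 1, and 239 and 160 without T-47D DMSO library 1 or 2. The ECC-1 total of 262 became 2152 without ECC-1 estradiol library 2, 113 without its library 1, 110 and 133 without ECC-1 DMSO library 1 or 2, and 424 and 425 without T-47D estradiol library 1 or 2, which enter it only through the shared spread. By call, 27 genes rose in both lines: 9.3% of the T-47D rises, where 1.42% of all tested genes rose in ECC-1, and 13.8% of the ECC-1 rises, where 2.1% of all tested genes rose in T-47D. A fall in both was called for 3 genes, 1.9% of the T-47D falls (background 0.477%) and 4.5% of the ECC-1 falls (background 1.11%). The change in the other line had the same sign for 207 of the 291 T-47D rises, 73 of the 154 T-47D falls, 138 of the 196 ECC-1 rises and 41 of the 66 ECC-1 falls. Over all tested genes the change was positive for 49.5% in ECC-1 and 47.6% in T-47D. Across all tested genes the correlation of the changes in the 2 lines, which share no library, was 0.04, and across the 420 genes called in either line and at 1 or more in both it was 0.17. RBBP8, a DNA end-resection gene, rose in T-47D from 7.29 and 6.73 to 11.8 and 15.3 and in ECC-1 from 43.9 and 38.4 to 67.1 and 76.8 (difference 0.09, interval −0.39 to 0.57). WDR3, DDX21 and LYAR, all of ribosome production or nucleolar function, rose by 0.43, 0.44 and 0.44 in T-47D and by 0.62, 0.53 and 0.5 in ECC-1. IGFBP3, an insulin-like growth factor binding protein gene, fell in both lines from very different levels, from 0.73 and 1 to 0.225 and 0.366 in T-47D and from 544 and 713 to 431 and 371 in ECC-1 (difference −0.14, interval −0.59 to 0.31). At the low T-47D level the added 0.5 shrinks the log2 change, so the interval does not bound the difference in fold of IGFBP3. GPR110, an adhesion G protein-coupled receptor gene, fell by 0.69 in T-47D and by 0.74 in ECC-1 on the log2 scale.

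The response also changed how far the lines stood apart. The gap between lines was wider with estradiol than in DMSO for 85 of the 102 larger T-47D rises (83.3%), 57 of the 79 larger ECC-1 rises (72.2%), 13 of the 21 larger ECC-1 falls (61.9%) and 8 of the 37 larger T-47D falls (21.6%). It was wider for 46.1% of all tested genes and 68.2% of all 239 called genes. The classes fix much of these shares, so nothing is read from their contrast. A rise in T-47D must widen the gap of a gene already higher there, as 67 of the 102 were in DMSO. The T-47D minus ECC-1 difference of SUSD3 went from 2.39 in DMSO to 5.04 with estradiol, and that of NRTN from −3.46 to −5.39. Of the 79 larger ECC-1 rises, 32 were higher in T-47D in DMSO and 11 with estradiol. DHRS3 went from 1.86 to −2.41 and MMP17 from 2.58 to −0.51, so the order of the lines changed. KCNK5 went from −3.19 to −0.95, staying higher in ECC-1. HIVEP1, a zinc finger gene among the larger T-47D falls that was named after its values were seen, narrowed from 2.55 to 0.99. Its levels were 10.1 and 13.5, then 5.46 and 6.38, in T-47D and 1.56 and 1.6, then 3.17 and 2.32, in ECC-1.

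**Figure D5:**
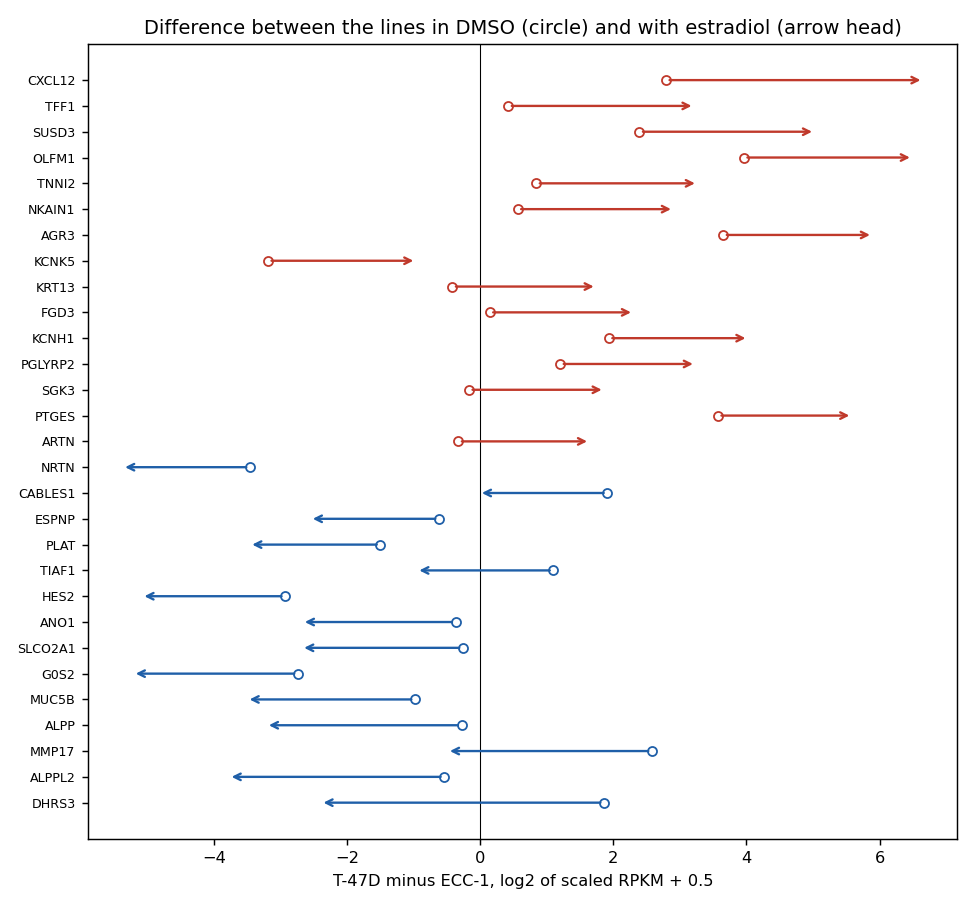
T-47D minus ECC-1 difference, log2 of scaled RPKM + 0.5, in DMSO (circle) and with estradiol (arrow head) for the named genes with the largest differences toward T-47D (red) and toward ECC-1 (blue). Most arrows run away from 0, whereas that of KCNK5 runs toward it, that of CABLES1 ends at −0.03, and those of DHRS3, MMP17, TIAF1, KRT13, SGK3 and ARTN cross it.

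After FGD3, SUSD3 and C9orf89 had been seen together among the called genes, neighbours in the RefSeq gene order were counted, with 13723 tested genes placed. There were 25 pairs of adjacent called genes, 13 toward T-47D and 12 toward ECC-1, and none with opposite directions. A called neighbour of the same direction that does not overlap it was next to 22 of 123 genes toward T-47D (17.9%), where 1.66% of all placed genes lie next to one called in that direction, and to 18 of 115 toward ECC-1 (15.7%; background 1.53%). Without near-identical copies, a list also drawn up after the pairs were seen, 12 and 6 pairs remained. FGD3, SUSD3 and C9orf89 lie in a row, with differences of 2.18, 2.66 and 1.87, and C9orf89 rose in T-47D from a mean of 9.56 ± 0.6 to 28.5 ± 6.83 (SD, n = 2). CTSD, which encodes the lysosomal protease cathepsin D, SYT8 and TNNI2 form another row (1.11, 1.39 and 2.44), as do the keratin genes KRT13, KRT15 and KRT19 (2.18, 1.61 and 1.15). HES2 and ESPN are neighbours toward ECC-1 (−2.17 and −1.79), and NRTN lies beside the fucosyltransferase genes FUT3 and FUT5 (−1.94, −1.04 and −0.94). The calls of CTSD, KRT15, FUT3 and FUT5 were kept in 14, 11, 9 and 13 of 20 alternatives. The adjusted p without T-47D DMSO library 1 was 0.0504 for CTSD, 0.115 for KRT15, 0.0777 for FUT3 and 0.0665 for FUT5. KRT19 was not called without that library either (0.085).

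The other treatments share the DMSO libraries with the estradiol comparison, so their levels are given side by side and not compared. CXCL12 was at 5.13 and 9.2 with bisphenol A and 37.4 and 40.8 with genistein in T-47D, and at most 0.0226 in ECC-1. DHRS3 was at 8.28 and 11.7 with bisphenol A and 17.2 and 26 with genistein in ECC-1, and between 2.29 and 5.8 in T-47D. KCNK5 was at 0.355 and 0.546 with bisphenol A and 1.51 and 2.58 with genistein in T-47D, and between 5.89 and 6.42 in ECC-1.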

How the data were processed

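The study has 16 RNA sequencing libraries from 2 established cell lines, of which the 8 with DMSO and estradiol are reported. Libraries were built from polyadenylated RNA by transposase tagging without strand marks, per the labels' protocols, so overlapping and antisense genes cannot be told apart. The authors deposited 1 table of RPKM values per library for 32062 RefSeq transcripts. Reads were aligned with Bowtie to hg19, per the submitters' processing notes, with no version stated; the sources used here do not say how reads were counted. The files hold no counts, so no count model was used. Low RPKM values come in steps of 1 read, which put the depth at 18.08 to 29.4 M reads in the 8 libraries (17.4 to 29.4 M in all 16). With these depths 62.3 to 64.5% of the values below 10 reads were whole to within 0.1 read, where chance gives 20% for a depth set beforehand. Each depth was chosen to make this share largest, so the share is no independent check of it.

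The transcript with the highest mean stood for each of 21453 symbols. Libraries were divided by median-ratio factors (0.938 to 1.054) over 7547 genes that reached 5 RPKM in every library. Genes with at least 1 scaled RPKM in at least 2 of 16 libraries, a total of 13834, entered limma as log2(scaled RPKM + 0.5) (version 3.58.1, R 4.3.3), with 8 group means and eBayes with a trend, which left 8 residual and 6.9 prior degrees of freedom. P-values were adjusted by Benjamini-Hochberg over all tested genes, threshold 0.05. The median 95% interval reached 0.47 to either side for the interaction and 0.33 within a line. The fit took a shared spread per gene over all 8 groups, including the bisphenol A and genistein groups, whose libraries differed less. It does not carry the wider spread with estradiol in full, so these intervals may be too narrow and p-values too small. The procedure was run on simulated data of 13739 genes, where 9.1% of the calls were false. It recovered 2% of true differences of 0.5 on the log2 scale, 44% of 1, 80% of 1.5 and 94% of 2. The simulation gave each gene the same spread in all groups, so the wider spread with estradiol was not tested.

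Named genes are the 15 largest called differences in each direction that averaged 1 scaled RPKM or more and had no overlap between the lines' library differences, a panel of 10 estrogen-responsive or receptor genes, the up to 4 genes of each list with the smallest p, the 8 shared responses and the genes called in opposite directions. Other names are said to be chosen after their values were seen, or were drawn from the lists and counts beside them. One gene that the rule names is not reported here. The members, the rule and the 20 gene lists were chosen with earlier results of these data known. Samples were grouped by the title and characteristics in the labels. Replicate numbers were not taken to pair the libraries: the differences between library 2 and library 1 correlated between groups of a line from −0.23 to 0.41 (0.08 for DMSO with estradiol in T-47D, −0.19 in ECC-1), not above 0.1 for every pair, and no label names a shared batch. Promoter windows came from RefSeq on GRCh38.p14 and are the only coordinates given, since the files use hg19. Figures were drawn with matplotlib 3.10.9.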

Additional observations from a re-analysis of the deposited data

Results flagged for a closer look

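The results listed here were singled out because the test of the difference between the lines passed its threshold. The estradiol response of 239 genes differed between T-47D and ECC-1. With only 2 libraries in a group, no single library could be tested as standing apart. Genes whose larger response was a rise in T-47D were CXCL12 (difference 3.88 on the log2 scale), TFF1 (2.81), SUSD3 (2.66), OLFM1 (2.55), TNNI2 (2.44), NKAIN1 (2.36), AGR3 (2.25), KCNK5 (2.24), KRT13 (2.18), FGD3 (2.18), KCNH1 (2.12), SGK3 (2.05), PGLYRP2 (2.05), PTGES (2.03), ARTN (1.99), PDZK1 (1.70), MYC (1.37), GREB1 (1.25), KRT18 (1.23), KRT19 (1.15) and XBP1 (1.12). For KRT18 the T-47D rise (0.62) and the ECC-1 fall (−0.61) were nearly equal in size, and neither passed its own test. ARTN, which encodes the GDNF-family ligand artemin, was at 1.69 and 1.02, then 8.08 and 3.51, in T-47D and between 1.32 and 1.82 in ECC-1, and its adjusted p was 0.0745 without T-47D DMSO library 2. With array weights neither ARTN (adjusted p = 0.0592) nor TNNI2 was called. YPEL3 had a difference of 1.02 through a fall in ECC-1.

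Genes whose larger response was a rise in ECC-1 were DHRS3 (−4.28), ALPPL2 (−3.25), MMP17 (−3.09), ALPP (−2.94), MUC5B (−2.54), G0S2 (−2.49), SLCO2A1 (−2.44), ANO1 (−2.33), HES2 (−2.17), TIAF1 (−2.08), PLAT (−1.98), ESPNP (−1.95), CABLES1 (−1.94), NRTN (−1.94), PIM1 (−1.52), CCND2 (−1.38) and TGFA (−1.03). A larger fall in T-47D gave the differences of KCNC1 (−1.53), S1PR3 (−1.38), PCDH7 (−1.06) and EPAS1 (−1.0). IL4R (−1.63), VASN (−1.43) and ROBO2 (−1.41) moved in opposite directions in the 2 lines by the tests within each line.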

How the results depend on the processing

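In every alternative run, all of the 239 genes that were still tested kept their sign. For the fits without a library, with array weights or with only the 8 libraries, the lack of overlap fixed this in advance. The count of 239 differences and the totals of 445 genes in T-47D and 262 in ECC-1 became 113, 260 and 137 with at least 5 scaled RPKM on average, 122, 198 and 128 with only the 8 libraries, and 60, 92 and 122 with array weights. Among alternatives chosen after seeing the data, they became 400, 934 and 651 with length and GC trends removed per library, and 4443, 4673 and 4394 with both second estradiol libraries omitted. Leaving out 1 library at a time, with the lone library assumed to vary like the other groups, they ran from 112 to 2212, from 160 to 3132 and from 110 to 2152. The share of larger T-47D rises under 1 in ECC-1 DMSO (48.0%) and the matching ECC-1 share (31.6%) were 33.3% and 11.1% with the 5 RPKM filter, and 64.6% and 50.6% with no filter. Over all genes tested they were 11.1% and 10.5%, 2.1% and 1.9% with the 5 RPKM filter, and 38.2% and 37.9% with no filter. The T-47D share was 58.5% with only the 8 libraries, 35.8% with length and GC trends removed and 59.8% at a DMSO level of 2. With both second estradiol libraries omitted the shares were 9.5% and 7.5%, and without 1 library they ran from 10.1 to 60.4% and from 9.2 to 35.3%. The cause of these shifts was not tested. With no filter, pseudocounts of 0.1 or 1, no scaling, quantile normalization, transcript sums or both first estradiol libraries omitted, the difference count was 173 to 264. The replicate block, with numbers not taken to pair the libraries, gave 309 differences (159 toward T-47D and 150 toward ECC-1), 537 in T-47D and 279 in ECC-1, and nothing was crossed. For the 107 named genes tested, 47 of them called, 1978 values over the alternatives kept their side of the threshold, 73 lost the call, 85 gained one and none reversed. Array weights ended 179 of all 239 calls. The depth limits genes near 0 in one line, where the pseudocount sets the size of a change.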
